A study of Mus musculus with 6 samples.

Results

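Receptors for acetylcholine, noradrenaline, serotonin, dopamine, extracellular nucleotides, adenosine, somatostatin, lysolipids, endothelin and prostaglandin E2 were examined in cultured mouse spinal cord neural stem cells sorted by a Pdgfra reporter. Members were taken by symbol from the gene column of the count table, as every Chrm, Chrn, Adra, Adrb, Htr, Drd, P2rx, P2ry, Adora, Sstr, Lpar, S1pr, Ednr and Ptger gene of the named receptor series. The rule matched 92 of the 26264 genes, of which 91 are receptor genes and 1, Chrna1os, is a transcript from the strand opposite Chrna1. They fall into 13 groups by transmitter.

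All 6 libraries came from spinal cord neural stem cells on a C57BL6J background, kept in DMEM-F12 medium with N2, B27, EGF and FGF2 and separated by fluorescence into a GFP-negative and a GFP-positive fraction. The labels give the genotype PDGFRaGFP/- to the 3 GFP-negative libraries (GFPneg) and PDGFRaGFP/+ to the 3 GFP-positive libraries (GFPpos). The reporter is tied to Pdgfra, a growth factor receptor gene used as a marker of oligodendrocyte precursors, so the fractions differ by reporter brightness in culture and not by position in the tissue. The sources used here do not give the animals' age beyond adult, nor whether replicate numbers stand for animals, cultures or sorts. The p-values therefore refer to spread between these libraries, and that spread may be technical.

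Most of these receptors are G protein-coupled: those coupled to Gs raise cyclic AMP through adenylyl cyclase, those coupled to Gi lower it, and those coupled to Gq release calcium through phospholipase C beta. The nicotinic, P2X and 5-HT3 receptors are instead ion channels that open when the ligand binds. In glia, noradrenaline, ATP, adenosine, endothelin and lysolipids are known as signals between neurons, vessels and glial cells, and oligodendrocyte precursors and astrocytes carry different sets of their receptors.

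Of the 92 members, 41 passed the filter on low counts and 51 did not, 6 of those with no count in any library. Among the 41, 9 rose and 20 fell in GFPpos cells against GFPneg cells at an adjusted p below 0.05, and 12 did not pass. That is 70.7% called, beside 55.4% of all 14554 genes tested. Of all genes 26.1% were called higher and 29.2% lower. A change of at least 2-fold was called upward in 8 members and downward in 17, where 6.07% and 12.3% of all tested genes did so. The median log2 fold change of the 41 was -0.74, against -0.01 over all genes tested. In 31 members no GFPpos library overlapped a GFPneg library, 12 with GFPpos above and 19 with it below; 64.2% of all tested genes were separated in this way. A member could pass the filter through only the fraction in which it is high, and such a member had to differ, so these counts describe the measured members and not the whole family.

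**Figure D1:**
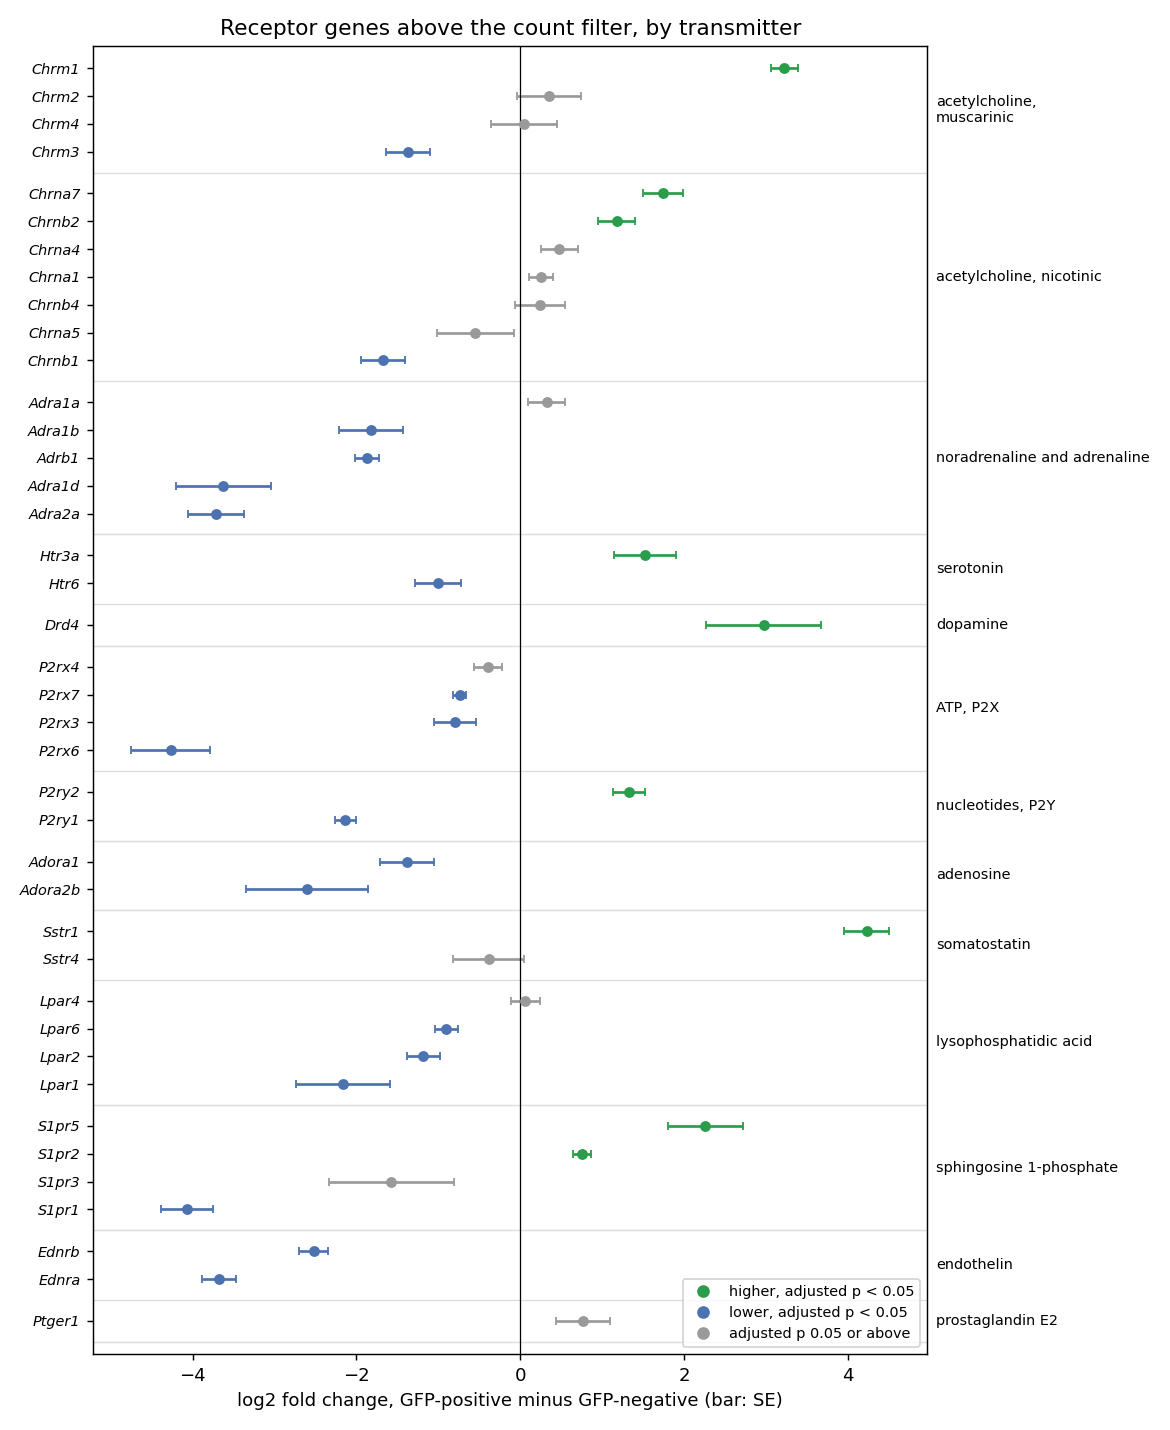
Log2 fold change, GFPpos over GFPneg, for 40 of the 41 tested receptors, grouped by transmitter, with bars of 1 standard error (3 libraries in each fraction). Sstr1 at 4.23 and Chrm1 at 3.22 lie farthest to the positive side, and P2rx6 at -4.27 and S1pr1 at -4.07 farthest to the negative side.

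In several groups 1 receptor rose while another of the same group fell. RefSeq promoter sequences are printed for the P2Y pair and for S1pr2, from such groups, and for Adora1, whose group had no member called higher, so that windows of higher and lower receptors can be read side by side. Below are the 250 bases upstream of the start on the gene's own strand, from RefSeq annotation of GRCm38.p6, for P2ry1 (chr3:61002535-61002784, plus strand, 70.8% G and C) and Adora1 (chr1:134235458-134235707, minus strand, 64.4%), which were lower, and for P2ry2 (chr7:101012054-101012303, minus strand, 65.2%) and S1pr2 (chr9:20976794-20977043, minus strand, 59.2%), which were higher. Capitals mark matches on either strand to CAGCTG (the E-box form bound by neural basic helix-loop-helix factors), ACAAAG (reverse CTTTGT, the core bound by Sox factors) or TTGGCA (reverse TGCCAA, the nuclear factor I half-site), and no pair of these motifs shares its letters.
P2ry1: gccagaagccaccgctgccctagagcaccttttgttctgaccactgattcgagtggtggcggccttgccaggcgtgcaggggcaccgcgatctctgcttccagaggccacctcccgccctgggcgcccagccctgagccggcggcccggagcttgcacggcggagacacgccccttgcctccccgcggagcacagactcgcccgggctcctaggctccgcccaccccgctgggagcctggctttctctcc
Adora1: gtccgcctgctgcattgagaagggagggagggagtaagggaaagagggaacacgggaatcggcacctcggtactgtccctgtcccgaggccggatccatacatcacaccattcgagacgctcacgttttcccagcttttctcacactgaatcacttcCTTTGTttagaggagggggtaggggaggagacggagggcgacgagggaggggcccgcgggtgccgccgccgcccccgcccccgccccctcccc
P2ry2: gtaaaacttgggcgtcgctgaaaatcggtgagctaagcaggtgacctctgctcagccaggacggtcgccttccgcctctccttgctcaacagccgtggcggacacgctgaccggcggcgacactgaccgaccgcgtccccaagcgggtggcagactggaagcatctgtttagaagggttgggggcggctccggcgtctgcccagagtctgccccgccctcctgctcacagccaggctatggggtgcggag
S1pr2: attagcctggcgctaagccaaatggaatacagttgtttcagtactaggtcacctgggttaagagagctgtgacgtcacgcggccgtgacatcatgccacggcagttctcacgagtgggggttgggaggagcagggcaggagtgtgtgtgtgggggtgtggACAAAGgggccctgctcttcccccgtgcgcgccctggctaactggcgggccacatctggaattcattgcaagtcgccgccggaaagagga
The S1pr2 window held 1 Sox match and the Adora1 window 1, and neither P2Y window held any of the 3 motifs. Over the promoters of 11432 tested genes, 11.6% held the E-box, 11.9% the Sox core and 10.2% the nuclear factor I half-site. Of the 41 tested members 32 had an entry, and Sstr1, Chrm1 and S1pr1 were among those without. Of the 32 members with an entry, 6 were higher, and among these 0 held the E-box, 1 the Sox core and 1 the half-site. Among the 16 lower members with an entry the numbers were 2, 3 and 1. A match is a string of letters and not a bound site. For a gene with several starts, only the first listed start was used.

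Levels are given below as CPM, that is TMM-normalised read counts per library of equal size, in the order of replicates 1, 2 and 3. In these bulk libraries a smaller share of cells that express a gene and less RNA per cell cannot be told apart. Levels of different genes are compared only as CPM per kilobase of merged exon.

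Among the receptors for acetylcholine, the muscarinic subtype changed over. Chrm1, a receptor that couples to Gq and is best known from forebrain neurons and oligodendrocyte precursors, stood at 1.49, 1.47 and 1.17 CPM in GFPneg cells and 13.4, 11 and 14.2 CPM in GFPpos cells. The fractions were far apart, and the log2 fold change was 3.22 (SE 0.17, adjusted p = 4.39e-06). Chrm3, which also couples to Gq, moved the other way, from 10.9, 20.3 and 12.1 CPM to 5.69, 6.80 and 4.24 CPM. Its log2 fold change was -1.37 (SE 0.26, adjusted p = 0.00275), and -1.03 without GFPneg replicate 2, the highest library. Of the summed muscarinic signal per kilobase, Chrm1 held 7.0%, 4.19% and 5.23% in GFPneg cells and 49.5%, 42.6% and 63.2% in GFPpos cells. The share of Chrm3 was 74.6%, 83.8% and 78.6% in GFPneg cells and 30.4%, 38% and 27.3% in GFPpos cells. The receptors Chrm2 and Chrm4, coupled to Gi, stayed under 1.1 CPM and did not pass the test, with log2 fold changes of 0.35 (SE 0.39) and 0.05 (SE 0.41).

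Of 17 nicotinic members 7 were tested, with 2 higher and 1 lower. Chrna7, whose product forms calcium-permeable channels of a single subunit kind, was at 1.15, 1.82 and 1.20 CPM in GFPneg cells and 5.53, 3.95 and 4.51 CPM in GFPpos cells. All GFPpos libraries lay above all GFPneg libraries, and the log2 fold change was 1.74 (SE 0.24, adjusted p = 0.000505). Chrnb2, the beta subunit that pairs with alpha4 in the common heteromeric receptor of the brain, rose from 2.21, 1.78 and 3.01 CPM to 5.45, 4.57 and 5.85 CPM (log2 fold change 1.18, SE 0.22, adjusted p = 0.00250). Exons of Chrnb2 overlap those of Adar on the opposite strand, and whether counting used strand is not given in the sources used here. Adar was at 64.1 to 71.5 CPM in all 6 libraries, and its log2 fold change was -0.03 (SE 0.06). Chrna4 itself, the alpha4 subunit and the highest nicotinic member per kilobase in every library, read 31.2, 16.7 and 31.7 CPM in GFPneg cells and 42.3, 33.1 and 35.6 CPM in GFPpos cells. GFPneg replicate 2 was the low library, and the log2 fold change of 0.48 (SE 0.23, adjusted p = 0.104) did not pass. With the replicate number as a block it was 0.52 with an adjusted p of 0.0120, and without replicate 2 of either fraction it was 0.32 with an adjusted p of 0.0210. Chrnb1, known from the muscle receptor, fell from 1.64, 1.31 and 1.65 CPM to 0.409, 0.508 and 0.517 CPM (log2 fold change -1.67, SE 0.27, adjusted p = 0.00112). The other tested subunits, Chrna1, Chrna5 and Chrnb4, had log2 fold changes of 0.25, -0.55 and 0.25 and did not pass.

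Adrenergic receptors were the group with most members lower: 5 of the 6 tested fell and none rose. Adrb1, which couples to Gs, was the highest of them per kilobase in all 6 libraries and stood at 40.3, 48.2 and 35.6 CPM in GFPneg cells against 10.2, 13.3 and 10.3 CPM in GFPpos cells. The fractions did not overlap, and its log2 fold change was -1.87 (SE 0.15, adjusted p = 2.73e-05). Adra2a, the Gi-coupled receptor that clonidine acts on, went from 15.3, 23.1 and 23.3 CPM to 1.36, 2.41 and 0.843 CPM. Every GFPpos library was thus below every GFPneg library, and the log2 fold change was -3.72 (SE 0.34, adjusted p = 5.80e-05). Of the Gq-coupled subtypes, both Adra1d and Adra1b fell. Adra1d fell from 0.849, 2.2 and 1.39 CPM to 0.0272, 0.177 and 0.136 CPM (log2 fold change -3.63, SE 0.58, adjusted p = 0.00103). Adra1b went from 1.12, 1.98 and 1.75 CPM to 0.327, 0.684 and 0.326 CPM (log2 fold change -1.83, SE 0.39, adjusted p = 0.00466). Adra1a was the exception, at 2.15, 3.76 and 2.66 CPM against 3.62, 3.71 and 3.37 CPM. Its fractions overlapped through GFPneg replicate 2, and the log2 fold change of 0.32 (SE 0.23, adjusted p = 0.258) did not pass; without that library it was 0.58 with an adjusted p of 0.0347. Adrb1 made up most of the group in both fractions, with 74.6%, 69.1% and 62.9% of the summed adrenergic signal per kilobase in GFPneg cells and 76.6%, 76.0% and 77.2% in GFPpos cells.

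**Figure D2:**
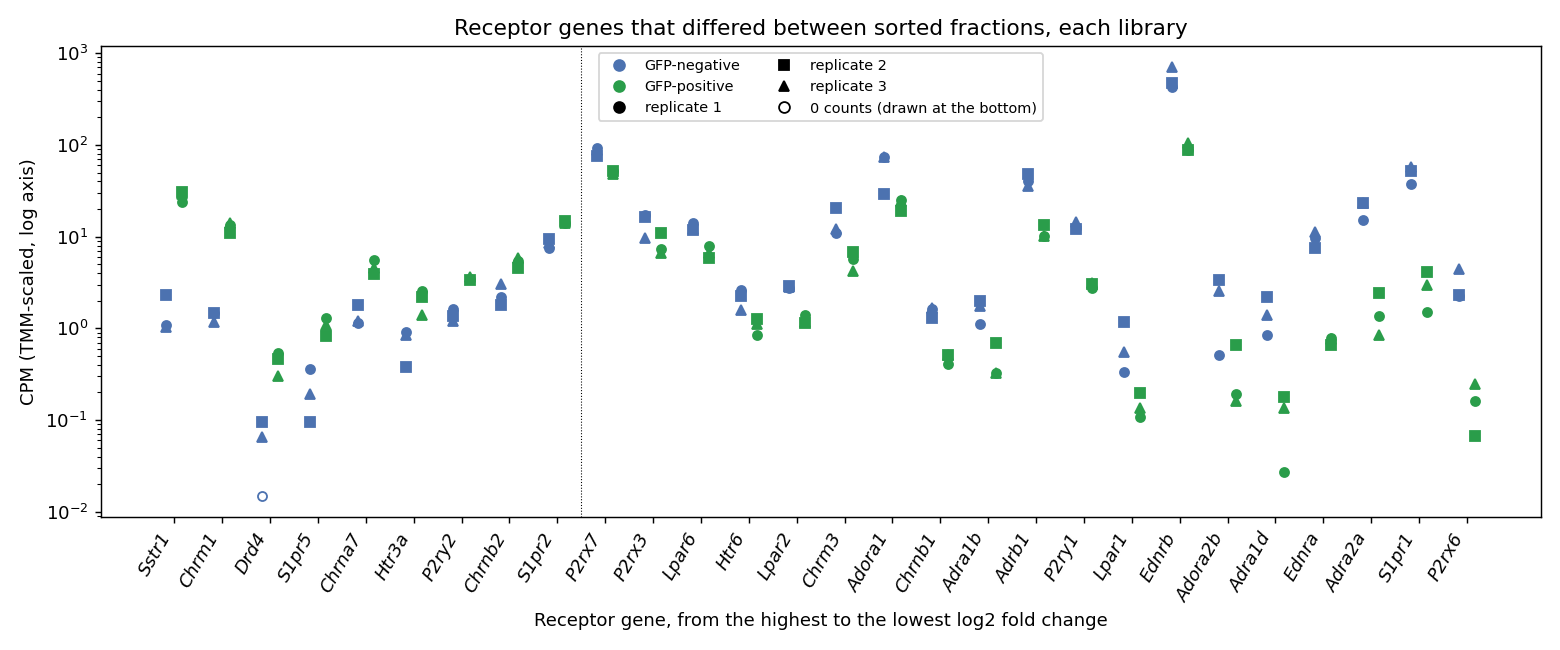
CPM of 28 of the 29 called receptors in each library, on a log axis, with 1 point per library and the fractions in separate colours. Ednrb lies highest in both fractions, at 433 to 702 CPM in GFPneg and 87.3 to 104 CPM in GFPpos libraries; points at 0 CPM are drawn at the axis floor.

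Serotonin and dopamine receptors were scarce. Only 2 of 14 serotonin members and 1 of 5 dopamine members passed the filter. Htr3a, the subunit of the serotonin-gated cation channel, was at 0.910, 0.382 and 0.842 CPM in GFPneg cells and 2.59, 2.19 and 1.39 CPM in GFPpos cells. It rose without overlap, by a log2 change of 1.52 (SE 0.38, adjusted p = 0.00952). Htr6, a Gs-coupled receptor, was at 2.64, 2.26 and 1.59 CPM and 0.845, 1.26 and 1.12 CPM, a log2 change of -1.01 (SE 0.28, adjusted p = 0.0151). That call was lost without GFPneg replicate 1 (adjusted p = 0.0603) and without GFPpos replicate 1 (adjusted p = 0.0596). Drd4, a Gi-coupled dopamine receptor, had 0, 3 and 2 counts in GFPneg cells and 20, 21 and 11 counts in GFPpos cells. Its log2 fold change was 2.97 (SE 0.70, adjusted p = 0.00718), or 2.39 without GFPneg replicate 1 and 3.67 without GFPneg replicate 2. Without GFPpos replicate 1, or without GFPpos replicate 2, Drd4 fell below the filter and was not tested. The Drd4 call thus rests on these few counts. Drd2, below the filter, had 1, 0 and 0 counts in GFPneg cells and 6, 8 and 8 in GFPpos cells.

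The purine receptors are taken by family, and of those tested only P2ry2 was called higher. Among the P2X channels gated by ATP, 3 of the 4 tested fell and none rose. P2rx7, known for opening at high ATP, was the highest per kilobase and read 92.3, 76.2 and 87.9 CPM in GFPneg cells and 52.5, 52.5 and 48.5 CPM in GFPpos cells. The difference was small beside those of other members but well outside the spread, and the log2 fold change was -0.74 (SE 0.08, adjusted p = 0.000136). P2rx6 went from 2.27, 2.33 and 4.47 CPM to 0.163, 0.0662 and 0.245 CPM, the largest fall among the 41 tested members at -4.27 (SE 0.48, adjusted p = 0.000171). The GFPpos libraries held only 6, 3 and 9 counts of P2rx6, so the size of this fall rests on few counts. P2rx3, best known from sensory neurons, overlapped between fractions, at 17, 16.6 and 9.79 CPM against 7.27, 11 and 6.58 CPM. Its log2 fold change of -0.80 (SE 0.26, adjusted p = 0.0291) lost its call when any of 4 libraries was left out: adjusted p = 0.0948 without GFPneg replicate 1, 0.0535 without GFPneg replicate 2, 0.106 without GFPpos replicate 1 and 0.0978 without GFPpos replicate 3. P2rx4 had a log2 change of -0.39 (SE 0.17, adjusted p = 0.0804), and -0.54 with an adjusted p of 0.0397 without replicate 2 of either fraction.

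Of the G protein-coupled nucleotide receptors, P2ry1 and P2ry2 exchanged places. P2ry1, a Gq-coupled receptor for ADP, was at 12.5, 12.2 and 14.6 CPM in GFPneg cells and 2.78, 3.02 and 3.13 CPM in GFPpos cells. The libraries of each fraction lay close together, and the log2 fold change was -2.13 (SE 0.13, adjusted p = 8.28e-06). P2ry2, a Gq-coupled receptor for ATP and UTP, rose from 1.61, 1.37 and 1.20 CPM to 3.49, 3.40 and 3.62 CPM (log2 fold change 1.33, SE 0.19, adjusted p = 0.000651). P2ry1 made up 83.4%, 84.6% and 89.5% of the P2Y signal per kilobase in GFPneg cells and 36.6%, 38% and 38.3% in GFPpos cells. P2ry2 made up 14.5%, 12.8% and 9.90% and then 61.9%, 57.7% and 59.7%. The other 7 P2Y members were below the filter, among them P2ry12, the receptor for which microglia are known. Neither promoter printed above holds a match to the motifs searched.

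Both tested adenosine receptors fell. Adora1, the Gi-coupled A1 receptor, read 74.0, 29.0 and 74.8 CPM in GFPneg cells and 25, 19.0 and 24.3 CPM in GFPpos cells. GFPneg replicate 2 stood well below the other GFPneg libraries, although still above each GFPpos library. The log2 fold change was -1.38 (SE 0.32, adjusted p = 0.00715), and -1.70 without that library. Exons of Adora1 overlap those of Mybph on the opposite strand, and Mybph read at most 1.09 CPM. Adora2b, the Gs-coupled A2B receptor, overlapped between fractions, at 0.516, 3.41 and 2.53 CPM against 0.191, 0.662 and 0.163 CPM. Its log2 fold change of -2.60 (SE 0.75, adjusted p = 0.0179) lost its call without GFPneg replicate 3, GFPpos replicate 1 or GFPpos replicate 3, with adjusted p = 0.0508, 0.0700 and 0.0633, and was -3.56 without GFPpos replicate 2. Adora2a was below the filter with 6, 3 and 2 counts against 17, 0 and 8, and Adora3 had no count in any library.

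Sstr1, a Gi-coupled somatostatin receptor, had the largest rise among the 41 tested members. It was at 1.09, 2.33 and 1.04 CPM in GFPneg cells and 23.6, 30.6 and 29.5 CPM in GFPpos cells, a log2 change of 4.23 (SE 0.28, adjusted p = 1.18e-05), or 4.72 without GFPneg replicate 2. Per kilobase it made up 97.4%, 97.7% and 98.2% of the somatostatin receptor signal in GFPpos cells. Sstr4, at 0.272 to 0.607 CPM, had a log2 change of -0.39 (SE 0.43) and did not pass, and the remaining 3 subtypes were below the filter.

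The receptors for sphingosine 1-phosphate showed the widest exchange among the lysolipid receptors. S1pr1, the Gi-coupled receptor known for cell egress and vessel stability, stood at 37.2, 51.5 and 57.4 CPM in GFPneg cells and 1.53, 4.11 and 2.94 CPM in GFPpos cells. No library of either fraction came near the other fraction, and the log2 fold change was -4.07 (SE 0.32, adjusted p = 2.63e-05). S1pr2, which couples to several G proteins, went from 7.49, 9.34 and 8.46 CPM to 14.1, 14.7 and 14 CPM (log2 fold change 0.76, SE 0.11, adjusted p = 0.000599). S1pr5, known from oligodendrocytes, was low but higher in GFPpos cells, at 0.364, 0.0956 and 0.194 CPM against 1.31, 0.817 and 1.09 CPM (log2 fold change 2.26, SE 0.46, adjusted p = 0.00356), or 2.85 without GFPneg replicate 1. Thus S1pr1 was 89.7%, 90.3% and 92.4% of the group's signal per kilobase in GFPneg cells and 15.5%, 32.8% and 26.7% in GFPpos cells. S1pr2 was 8.61%, 7.81% and 6.49% and then 68.0%, 55.9% and 60.4%. S1pr3 overlapped, at 0.394, 1.40 and 0.680 CPM against 0.0545, 0.596 and 0.136 CPM, and did not pass (log2 fold change -1.57, SE 0.76, adjusted p = 0.114). Its value was -1.80 with an adjusted p of 0.0101 with the replicate block, and -3.05 with an adjusted p of 0.0168 without GFPpos replicate 2, but -0.94 with an adjusted p of 0.333 without GFPneg replicate 2. S1pr4, known from lymphocytes, had no count.

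**Figure D3:**
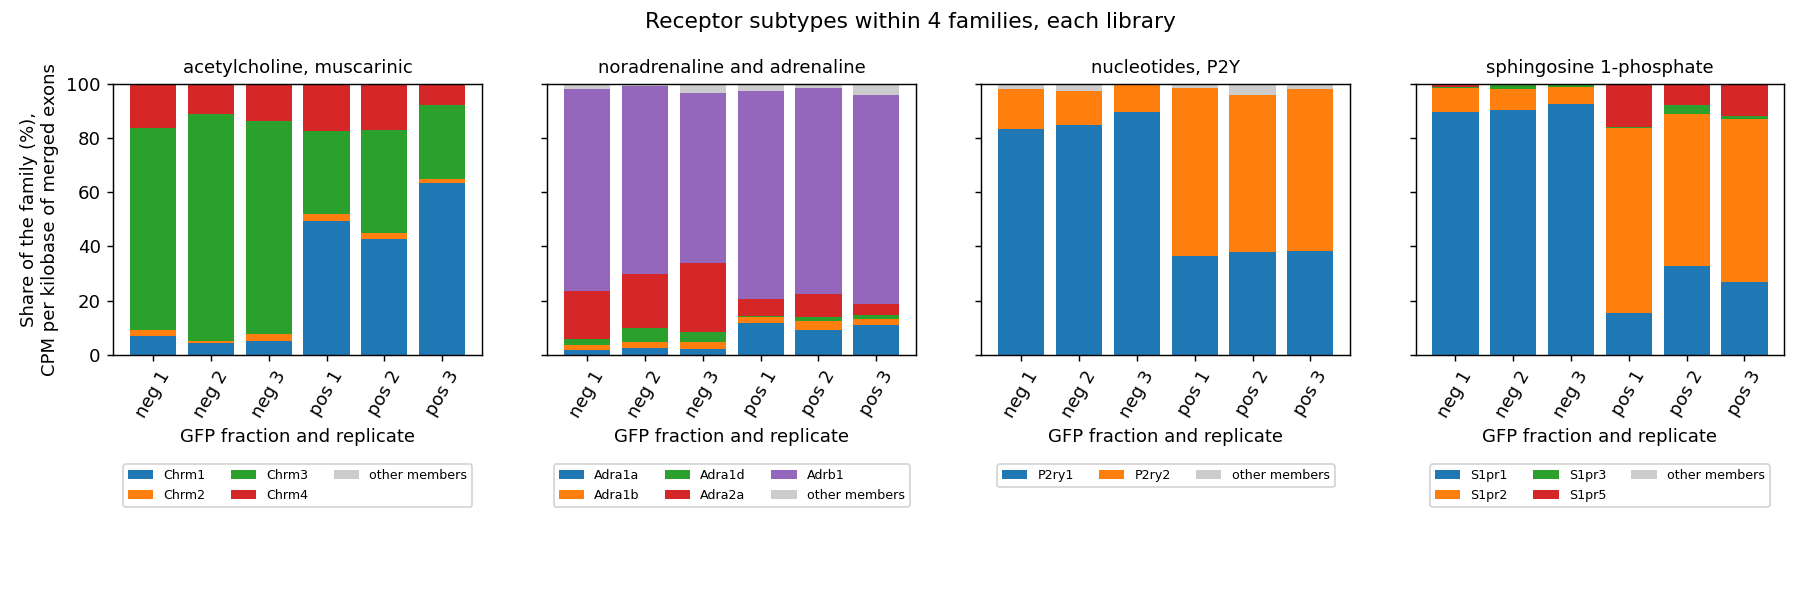
Share of each receptor subtype in the summed CPM per kilobase of its transmitter group, in percent, for 4 groups in each of the 6 libraries (neg, GFPneg; pos, GFPpos). In GFPneg libraries S1pr1 held 89.7 to 92.4% and P2ry1 83.4 to 89.5% of their groups, and in GFPpos libraries S1pr2 held 55.9 to 68.0% and P2ry2 57.7 to 61.9%.

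Of the receptors for lysophosphatidic acid, 3 of 4 tested fell and none rose. Lpar6 went from 14.1, 11.8 and 12.2 CPM to 7.87, 5.89 and 6.64 CPM (log2 fold change -0.90, SE 0.14, adjusted p = 0.000849). This gene lies within an intron of Rb1 on the other strand, and reads of unspliced Rb1 RNA could be counted with it if strand was not used. Lpar2 fell from 2.79, 2.87 and 2.82 CPM to 1.42, 1.15 and 1.17 CPM, a log2 change of -1.18 (SE 0.20, adjusted p = 0.00140) with little spread within a fraction. Lpar1, the subtype known from mature oligodendrocytes, was scarce in both fractions, at 0.334, 1.18 and 0.551 CPM against 0.109, 0.199 and 0.136 CPM (log2 fold change -2.165, SE 0.57, adjusted p = 0.0126), or -1.52 with an adjusted p of 0.0424 without GFPneg replicate 2. Lpar4 had a log2 change of 0.06 (SE 0.18) and did not pass, at 5.35 to 8.06 CPM over all libraries. It was the largest of the group per kilobase in GFPpos cells with 45.4%, 47.8% and 47.5%, while Lpar6 was largest in GFPneg cells with 54.9%, 43.7% and 51.4%.

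Both endothelin receptors fell, and Ednrb was the most abundant member per kilobase in all 6 libraries. Ednrb, which binds all endothelins, was at 433, 473 and 702 CPM in GFPneg cells and 88.5, 87.3 and 104 CPM in GFPpos cells. The lowest GFPneg library was far above the highest GFPpos library, and the log2 fold change was -2.52 (SE 0.18, adjusted p = 1.79e-05). Ednra, which prefers endothelin-1, went from 9.64, 7.59 and 11.2 CPM to 0.790, 0.662 and 0.762 CPM (log2 fold change -3.68, SE 0.21, adjusted p = 6.09e-06). Summed over all members, CPM per kilobase was 203, 212 and 272 in GFPneg cells and 86.4, 89.6 and 88.9 in GFPpos cells, and Ednrb alone held 50.03%, 52.4% and 60.6% and 24%, 22.8% and 27.4% of it. Without Ednrb the sums were 101, 101 and 107 against 65.7, 69.1 and 64.5, still lower in each GFPpos library. Among the prostaglandin E2 receptors only Ptger1 was tested, at 0.364, 0.382 and 0.259 CPM against 0.627, 0.552 and 0.544 CPM. Its fractions did not overlap, but the log2 fold change of 0.77 (SE 0.33, adjusted p = 0.0827) did not pass. Whether counting used strand is not given in the sources used here, and the part of opposite-strand reads in this value was not tested.

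Sorted by coupling, all 4 tested Gs-coupled members were called lower, among them Adrb1, Htr6 and Adora2b, where 29.2% of all tested genes were called lower. Without GFPpos replicate 1 only 2 of the 4 were called, since Htr6 (adjusted p = 0.0596) and Adora2b (adjusted p = 0.0700) did not pass. Of 9 tested members coupled to Gq, 2 were higher (Chrm1 and P2ry2) and 5 lower. Of 8 coupled to Gi, 2 were higher (Sstr1 and Drd4) and 3 lower. Among 12 tested channel subunits 3 were higher, Chrna7, Chrnb2 and Htr3a, and 4 were lower. The 8 members that couple to several classes held 2 higher, S1pr2 and S1pr5, and 4 lower. The coupling classes were not compared with each other by a test.

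Members below the filter stayed at or under 0.546 CPM in every library. Besides Adora2a, 6 of them reached 10 counts in a library: Adra2c (2, 1 and 1 counts in GFPneg, 10, 7 and 16 in GFPpos), P2rx5 (18, 10 and 2, then 0, 6 and 4), Sstr2 (7, 3 and 12, then 4, 4 and 4), Sstr5 (0, 1 and 0, then 1, 10 and 2), Lpar3 (4, 4 and 11, then 5, 12 and 8) and Lpar5 (8, 3 and 5, then 17, 12 and 8). When no filter was applied, Adra2c and Drd2 were called higher in GFPpos cells, with adjusted p = 0.0237 and 0.0259. Chrna1os had 6, 9 and 9 counts against 7, 2 and 2. The members with no count in any library were Adora3, P2ry10, Chrne, Chrna2, S1pr4 and Drd3.

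Genes that make, export or clear the ligands were read from a list of 63, of which 37 were tested, 9 rose and 16 fell. The list had 67.6% called, beside 55.4% of all tested genes (26.1% higher and 29.2% lower). Its median log2 fold change was -0.24. In the sphingosine 1-phosphate pathway, the kinase Sphk1 was at 10.3, 10.2 and 8.33 CPM in GFPneg cells and 0.872, 0.706 and 0.571 CPM in GFPpos cells (log2 fold change -3.74, SE 0.20, adjusted p = 5.10e-06). The exporter Spns2 went the opposite way, from 5.03, 4.30 and 4.24 CPM to 23.8, 27.2 and 28.0 CPM (log2 fold change 2.54, SE 0.11, adjusted p = 2.78e-06). The fractions of both genes were well apart, and the other kinase, Sphk2, had a log2 change of 0.06 and did not pass. Sgpl1, the lyase that breaks the ligand down, fell by 0.38 on the log2 scale. In the lysophosphatidic acid pathway, Enpp2, the autotaxin that makes the ligand outside the cell, rose from 36.3, 52.2 and 43.3 CPM to 66.7, 74.5 and 79.6 CPM (log2 fold change 0.75, adjusted p = 0.00157). Plpp3, a lipid phosphatase that degrades it, fell from 357, 357 and 445 CPM to 122, 117 and 113 CPM (log2 fold change -1.72, adjusted p = 5.13e-06), and Plpp1 fell by 1.17 on the log2 scale.

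Around the purine receptors, 12 listed genes were tested, with 5 higher and 3 lower and a median log2 fold change of 0.28. Of all tested genes 26.1% were called higher and 29.2% lower. Some of the higher calls were lost when 1 library was left out. Enpp1, which cleaves ATP to AMP, was lower in GFPpos cells, at 13.4, 15.4 and 15.6 CPM against 2.02, 2.36 and 2.42 CPM (log2 fold change -2.70, adjusted p = 3.58e-06). Nt5e, the CD73 enzyme that turns AMP into adenosine, was higher, at 1.18, 0.892 and 1.17 CPM against 2.89, 3.71 and 3.92 CPM (log2 fold change 1.69, adjusted p = 0.000399). The adenosine transporter Slc29a1 fell from 34.4, 31.9 and 33.5 CPM to 15.9, 15.6 and 14.5 CPM, and the phosphatase Alpl fell by 1.37 on the log2 scale. For acetylcholine, the cholinesterase Bche fell by 0.42 on the log2 scale, while Ache had a log2 fold change of 0.59 (adjusted p = 0.138) and did not pass; with the replicate block it was 0.62 with an adjusted p of 0.0268. Amine clearance changed in both directions. Slc22a3, the extraneuronal monoamine transporter, was at 0.0303, 0.0637 and 0.227 CPM against 1.55, 0.949 and 1.66 CPM (log2 fold change 3.67, adjusted p = 0.000884), or 4.80 without GFPneg replicate 3. Maob, a monoamine oxidase, was at 2.73, 1.91 and 2.37 CPM against 0.354, 0.132 and 0.544 CPM (log2 fold change -2.79, adjusted p = 0.000928), and Maoa fell by 0.63 on the log2 scale. For prostaglandin E2, the cyclooxygenase Ptgs2 was at 0.212, 0.255 and 0 CPM against 0.790, 1.21 and 1.09 CPM (log2 fold change 2.69, adjusted p = 0.00766). The synthase genes Ptges3 and Ptges2 fell by 0.32 and 0.40 on the log2 scale, although the Ptges2 call was lost without replicate 1 or replicate 3 of either fraction (adjusted p from 0.0810 to 0.117). Ece1, which cuts endothelin from its precursor, fell by 0.43 on that scale. Genes that make the amine ligands themselves, such as Chat, Th and Tph2, did not pass the filter, nor did the peptide genes Sst, Edn1, Edn2 and Edn3.

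**Figure D4:**
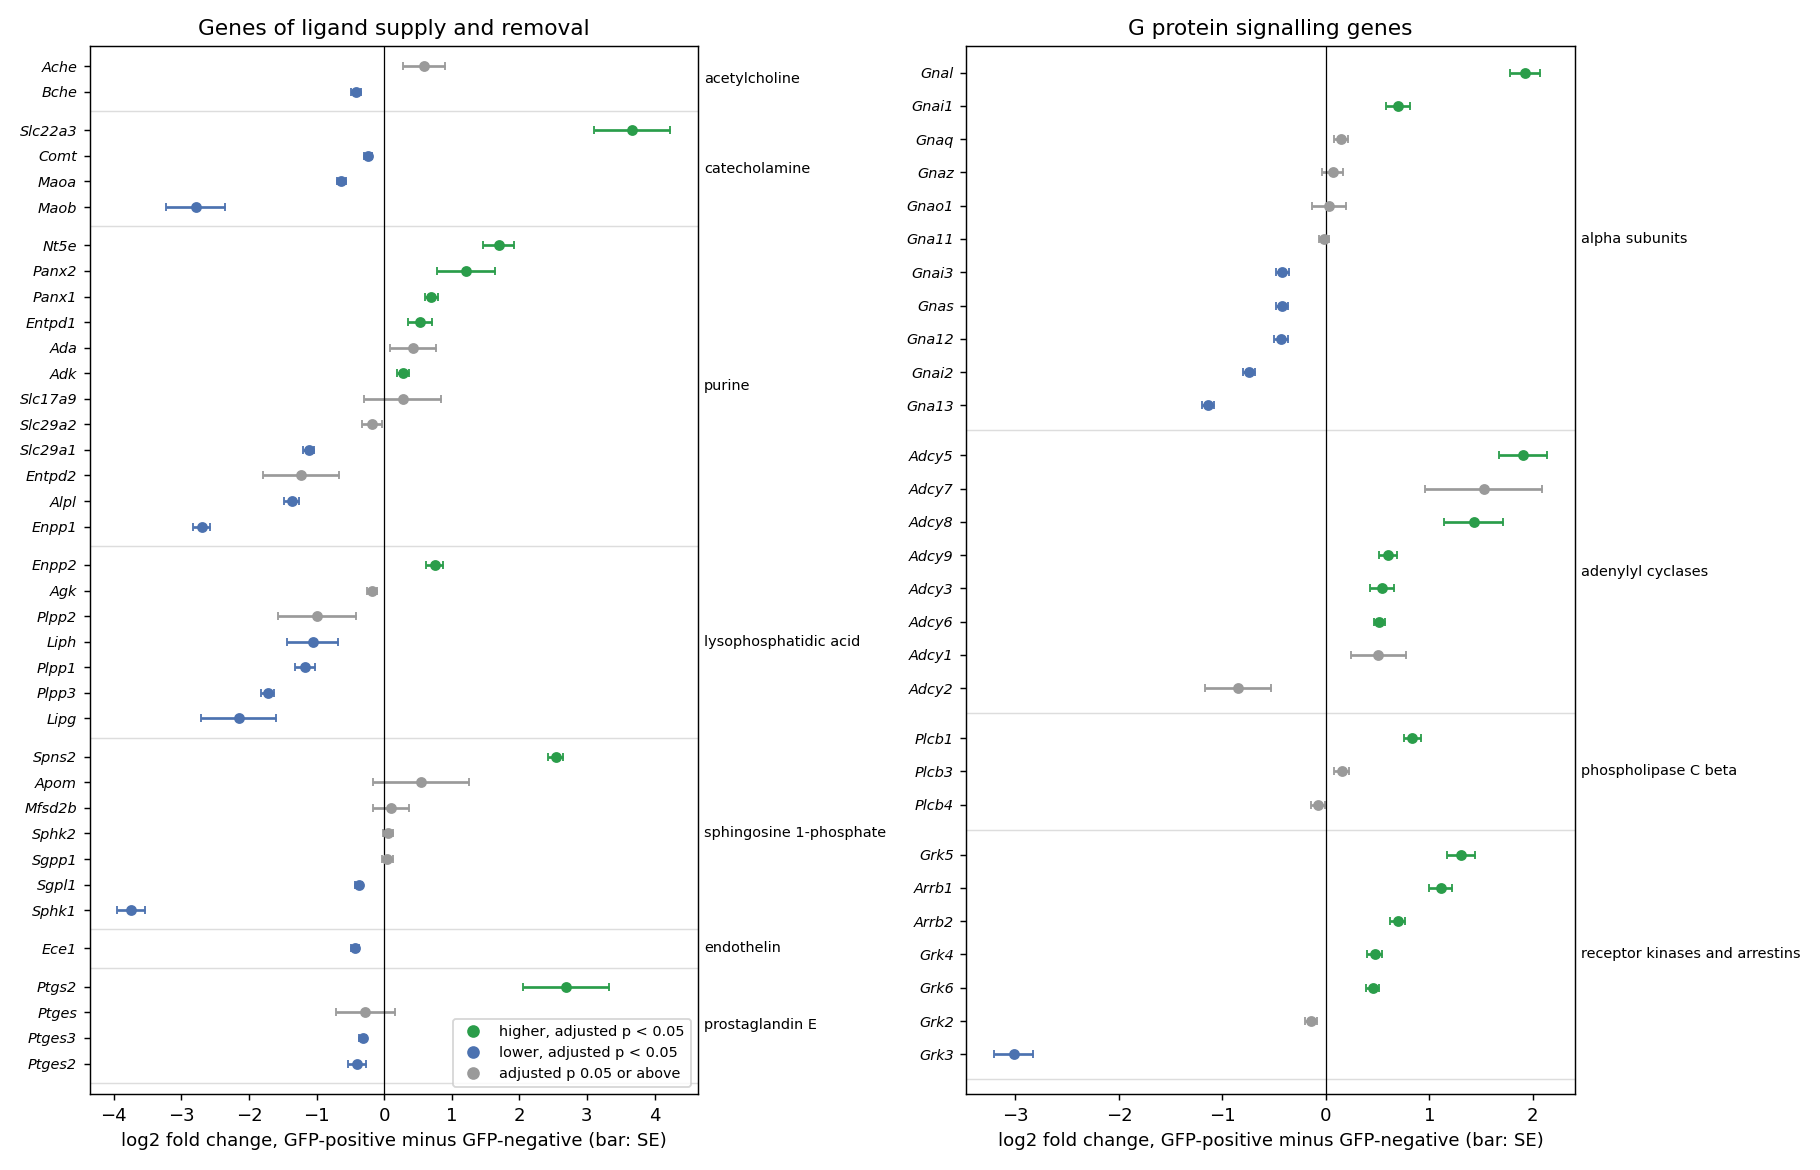
Log2 fold change, GFPpos over GFPneg, with bars of 1 standard error, for the tested genes of ligand supply and of G protein signalling (3 libraries in each fraction). Slc22a3 at 3.67 and Spns2 at 2.54 lie to the positive side, and Sphk1 at -3.74 and Grk3 at -3.02 to the negative side.

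Downstream of the receptors, 29 of 33 listed G protein and effector genes were tested, with 13 higher, 6 lower, 65.5% called and a median log2 fold change of 0.45. Of all tested genes 55.4% were called, 26.1% higher and 29.2% lower. Of 8 tested adenylyl cyclases 5 were higher (Adcy3, Adcy5, Adcy6, Adcy8 and Adcy9) and none lower. The log2 fold change of Adcy2 was -0.85 (SE 0.32, adjusted p = 0.0524); with the replicate block it was called lower (-0.80, adjusted p = 0.00253), as it was with DESeq2 (adjusted p = 0.0140), with no filter (adjusted p = 0.0270) and with upper-quartile scaling (adjusted p = 0.0496). Adcy1, at 0.51 (SE 0.27, adjusted p = 0.140), was called higher with the block (0.53, adjusted p = 0.000535). Without GFPneg replicate 2 both passed, at -1.13 (adjusted p = 0.00135) for Adcy2 and 0.87 (adjusted p = 0.00365) for Adcy1. Adcy5 read 15.7, 30.1 and 16.8 CPM in GFPneg cells and 72.1, 88.2 and 73.7 CPM in GFPpos cells (log2 fold change 1.9, adjusted p = 0.000256). Adcy8, which calcium stimulates, was at 27.0, 67.8 and 41.7 CPM and 107, 137 and 123 CPM (log2 fold change 1.43, adjusted p = 0.00322). GFPneg replicate 2 was the highest GFPneg library for both. Of 11 alpha subunits 2 were higher and 5 lower: Gnal, a Gs-like subunit, rose by a log2 change of 1.93 (adjusted p = 2.30e-05), and Gna13, of the G12 class, fell from 266, 263 and 290 CPM to 124, 122 and 126 CPM (adjusted p = 3.59e-06). Of the Gi subunits, Gnai2 fell by 0.74 on the log2 scale and Gnai1 rose by 0.69. Among the phospholipase C beta genes, Plcb1 rose by 0.83 on the log2 scale, and Plcb3 at 0.15 (adjusted p = 0.109) and Plcb4 at -0.08 (adjusted p = 0.373) did not pass. Adcy6 and Adcy9 rose by 0.52 and 0.60 on that scale. Among 7 receptor kinases and arrestins 5 rose, including Arrb1 (28.2, 35.4 and 26.6 CPM, then 63.5, 69.1 and 62.1 CPM), Grk5 by 1.30 and Arrb2 by 0.69 on the log2 scale. The 1 that fell was Grk3, a kinase recruited by free beta-gamma subunits, at 136, 83.2 and 137 CPM against 15.2, 14.4 and 14.4 CPM (log2 fold change -3.02, adjusted p = 9.73e-06).

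Marker genes of other cell types moved with these receptors. Pdgfra, the gene behind the sort, was at 8.04, 19.3 and 13.9 CPM in GFPneg and 237, 205 and 245 CPM in GFPpos libraries. The neural stem cell label was not tested beyond these lists. Of all tested genes 26.1% were called higher and 29.2% lower. All 8 oligodendrocyte precursor markers were higher in GFPpos cells, with summed levels of 4390 to 4638 CPM against 2231 to 2518 CPM; Gpr17 and Lhfpl3 had log2 fold changes of 3.85 and 1.51. All 8 astrocyte markers were lower, at 402 to 508 CPM against 3195 to 3997 CPM, with Slc1a3, Slc6a11 and Slc1a2 at log2 fold changes of -2.88, -4.38 and -2.54. All 3 tested ependymal markers, Rfx2, Foxj1 and Cfap126, were lower (summed over the list, 6.21 to 7.78 against 17.9 to 25.6 CPM). Of 5 tested neuronal markers 3, Snap25, Rbfox3 and Syt1, were higher. Gad1 (log2 fold change 0.45, adjusted p = 0.631) and Gad2 (-0.45, adjusted p = 0.182) did not pass. Stmn2 and Slc32a1 were below the filter, at or under 0.255 CPM, and Slc17a6 was at 0. The neuronal list summed to 36.0 to 44.7 against 10.8 to 19.4 CPM. Of the 8 microglia and macrophage markers only 2 were tested and 1 was lower, while Tmem119 did not pass; C1qa was at 0 and the other 5 untested ones stayed at or under 0.109 CPM. Endothelial markers summed to 1.39 to 2.26 against 2.58 to 9.85 CPM, with Cldn5 and Ly6c1 at 0 and Flt1 the 1 lower of 3 tested (Kdr and Pecam1 did not pass). Mural and fibroblast markers summed to 0.163 to 0.442 against 1.82 to 2.37 CPM, with Col1a1 the 1 tested and lower. Schwann cell markers summed to 11.7 to 12.5 against 18.7 to 21.7 CPM, with Cdh19 the 1 lower of 4 tested; Prx and Scn7a did not pass. The part of these differences in the receptor values was not tested. Replicate 2 stood apart in both fractions for some markers: Aldh1l1 was at 15.2, 121 and 26.9 CPM in GFPneg and 1.20, 11 and 1.5 CPM in GFPpos libraries, and Sox10 at 2.34, 12.5 and 3.53 and at 39.4, 93.6 and 45.4 CPM. Without replicate 2 of either fraction 10 members were higher and 22 lower, against 9 and 20 with all libraries.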

How the data were processed

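RNA of 6 sorted libraries was measured by bulk sequencing with the SMART-Seq Stranded kit, per the labels' protocols. The deposited table holds raw read counts per gene with no normalization, made by the authors. Of the tools in the submitters' processing notes, TopHat2 (version 2.1.1) aligns reads and featureCounts (version 2.0.0) counts them; mm39 is the build named there. The gene annotation and strand setting used are not stated in the sources at hand, and reads of overlapping genes may be mixed. Totals were 31067850 to 45207335 counts per library, and 4856 genes had no count.

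Genes were tested in edgeR 4.0.16 under R 4.3.3. Counts were scaled with TMM and filtered with filterByExpr at a minimum count of 10. The quasi-likelihood F test was used, with p-values adjusted over 14554 genes by the Benjamini-Hochberg method and called below 0.05. Log2 fold changes are GFPpos over GFPneg, and their SE is the fold change over the square root of F. Exon lengths and overlaps came from the GENCODE M21 annotation of GRCm38, a different build from that of the counts, so lengths are approximate. The script was run on simulated data in which a small part of the genes changed, as many up as down. In these data 55.4% of tested genes were called, so that run does not test the scaling in this setting. Libraries of a fraction differed by more than counting noise, with a chi-square per degree of freedom of 9.83 to 34.2.

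Same-numbered libraries deviated together from their group means (correlations across genes 0.288, 0.453 and 0.260). Between different numbers, GFPneg replicate 1 with GFPpos replicate 3 gave 0.193, and GFPneg replicate 3 with GFPpos replicate 1 gave 0.047. Pairs of replicate 2 with another number were all negative, from -0.388 to -0.238. Replicate 2 thus stood apart most clearly, and the pairing of replicates 1 and 3 is less clear. The numbers, from the titles, were taken to pair the samples only in the replicate block. Except where that block is named, log2 fold changes, SE, adjusted p-values and calls come from a fit that treated the libraries as unpaired. The members and gene lists were chosen with earlier results of these data known. All tested members but 1, which is not reported here along with some other genes, were named, and members below the filter with at least 10 counts in a library. In each other list the 3 genes with the smallest p and the called gene of opposite direction with the smallest p were named, and further genes of these lists were chosen after their values were seen. Alternatives were RLE and upper-quartile scaling, other filters, DESeq2 1.42.0, the replicate block and leaving out libraries.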

Additional observations from a re-analysis of the deposited data

How the results depend on the processing

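No direction of a called value reversed under any alternative run. With RLE or upper-quartile scaling each of the 41 tested members kept its side of the threshold. Of the members, 9 were higher and 20 lower. Leaving out 1 library at a time gave 8 to 10 higher and 17 to 21 lower members, and 6807 to 8637 called genes in all, against 8058. A filter of at least 1 CPM in 3 libraries tested 28 members and called 7 higher and 16 lower, since fewer genes were tested. With no filter 11 were higher and 20 lower. DESeq2 called 10 higher, gaining Chrna4 (adjusted p = 0.0396). With the replicate number as a block 10 members were higher and 21 lower: Chrna4 and S1pr3 passed, and it changed no other member's call; 8340 genes were called in all. With that block the ligand supply list had 10 higher and 15 lower genes and the signalling list 14 and 7: Ache, Adcy1 and Adcy2 passed and Liph did not (adjusted p = 0.0620). Leaving out 1 library gave 6 to 10 higher and 13 to 15 lower in the first list and 13 to 15 and 6 to 7 in the second. Leaving out replicate 2 of either fraction was chosen after seeing the data. At these depths members under about 10 counts per library, which include most serotonin, dopamine and P2Y receptors, could not be compared.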
